A study of Mus musculus with 45 samples.

Results

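FAMIN (gene symbol Lacc1) is an enzyme of purine nucleoside metabolism, and coding variants of it are linked in people to Crohn's disease, leprosy and a monogenic form of juvenile arthritis. The comparison described here is that of M1 macrophages from Famin p.284R mice with M1 macrophages from Famin p.254I mice, called 284R and 254I below. It takes 10 of the 45 RNA-seq libraries of the series, 5 of each genotype, chosen by their sample titles. All were bone marrow-derived macrophages of C57BL/6N mice aged 6 to 10 weeks. After 6 days of culture, the macrophages received IFN-γ at 50 ng/mL together with LPS at 20 ng/mL over 24 h, which defines M1 here. The remaining libraries were unpolarized (M0) and IL-4-treated (M2) macrophages of both genotypes and macrophages of Famin p.254V mice (254V) in all 3 states. The 284R form is linked to monogenic disease and its protein is barely expressed on transfection into a cell line, 254I is the non-risk form and serves here as the reference, and 254V is the common risk form, which C57BL/6 mice carry. The study bred its mice from heterozygous parents and used littermates. Nothing in the sources used here says whether equal replicate numbers mark mice that shared a litter or a culture day.

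In M1 macrophages, LPS acts through Toll-like receptor 4 to release the NF-κB transcription factors from their inhibitors, the IκB proteins. IFN-γ acts through its receptor and JAK kinases. Together they induce nitric oxide synthase 2, itaconate synthesis, chemokines and a set of genes that restrain the response, among them the genes of the IκB proteins and of A20 themselves.

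The promoters of 5 genes that were higher in 284R are printed first because each encodes an NF-κB subunit, an inhibitor of NF-κB or a gene induced with them, and each holds the letters GGGNNNTTCC on either strand, a pattern bound by NF-κB. The windows run from 250 bases before to 50 bases after a gene start, are given 5′ to 3′ on the gene's own strand, and come from RefSeq on build GRCm38.p6. Matches are in capitals.
Nfkbia (chr12:55492598-55492897, minus strand): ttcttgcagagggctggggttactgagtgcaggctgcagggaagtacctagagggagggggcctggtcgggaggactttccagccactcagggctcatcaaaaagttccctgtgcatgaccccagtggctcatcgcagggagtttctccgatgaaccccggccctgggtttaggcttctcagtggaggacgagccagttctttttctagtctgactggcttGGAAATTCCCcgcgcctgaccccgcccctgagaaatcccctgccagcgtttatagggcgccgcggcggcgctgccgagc
Nfkbie (chr17:45555450-45555749, plus strand): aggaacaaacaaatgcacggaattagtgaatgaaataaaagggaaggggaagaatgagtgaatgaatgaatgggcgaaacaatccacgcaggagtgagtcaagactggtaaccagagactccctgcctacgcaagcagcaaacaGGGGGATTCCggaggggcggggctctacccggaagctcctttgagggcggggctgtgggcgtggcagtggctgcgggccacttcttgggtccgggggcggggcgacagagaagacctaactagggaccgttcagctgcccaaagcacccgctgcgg
Nfkb2 (chr19:46304487-46304786, plus strand): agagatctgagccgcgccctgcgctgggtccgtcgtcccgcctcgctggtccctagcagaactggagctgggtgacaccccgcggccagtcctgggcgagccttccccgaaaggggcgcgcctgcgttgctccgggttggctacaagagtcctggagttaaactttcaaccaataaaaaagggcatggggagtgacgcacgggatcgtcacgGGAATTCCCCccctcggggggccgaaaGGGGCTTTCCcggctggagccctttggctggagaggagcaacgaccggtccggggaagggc
Tnfaip3 (chr10:19015361-19015660, minus strand): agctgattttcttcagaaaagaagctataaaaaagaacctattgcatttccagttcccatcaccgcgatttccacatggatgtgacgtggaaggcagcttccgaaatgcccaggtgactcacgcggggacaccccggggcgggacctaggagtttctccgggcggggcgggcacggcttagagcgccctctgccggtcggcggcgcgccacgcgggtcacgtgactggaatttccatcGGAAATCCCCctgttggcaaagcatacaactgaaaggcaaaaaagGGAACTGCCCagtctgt
Ubd (chr17:37193642-37193941, plus strand): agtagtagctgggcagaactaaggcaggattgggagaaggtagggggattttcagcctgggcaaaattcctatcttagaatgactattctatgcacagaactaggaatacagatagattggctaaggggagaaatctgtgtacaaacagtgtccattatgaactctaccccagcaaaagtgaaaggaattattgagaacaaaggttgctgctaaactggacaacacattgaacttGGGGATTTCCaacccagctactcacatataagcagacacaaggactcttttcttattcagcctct
In Nfkbia the match began 29 bases before the gene start, and in Ubd it began 15 bases before it. Of the 27 genes called higher, 21 had a promoter in the RefSeq table, and 5 of these 21 (23.8%) held the pattern in at least 1 of their windows. Of all genes tested, 10036 had a promoter there and 754 of them (7.51%) held it. The pattern GAAANNGAAA, the core of the interferon-stimulated response element, was in none of the 21 and in 4.05% of all. Among the 7 genes called lower, 5 had a promoter and Polg2 held GGGNNNTTCC. These are matches of letters in windows of this length, and they were not tested.

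The 10 libraries held between 17239009 and 36892515 counts, and the 10 most abundant genes took 8.40% to 9.56% of each library. The macrophage markers were present in every library: their summed level was 13160 to 16808 CPM in 284R and 13146 to 15972 CPM in 254I, which did not differ beyond the spread (exact permutation test, two-sided, p = 0.58, smallest possible p 0.0079). The summed level of the M1 markers was 12983 to 17475 CPM in 284R and 10841 to 13224 CPM in 254I (exact permutation test, two-sided, p = 0.024). With equal replicate numbers paired, an exact sign-flip test gave p = 0.062, the smallest it allows. That list was chosen with earlier results of these data known and holds 4 of the genes called higher. Its most abundant gene, Gbp2, reached 9829 CPM and was not called. Summed markers of neutrophils, dendritic cells, lymphocytes, mast cells and basophils, stromal cells and erythroid cells gave exact permutation p between 0.25 and 0.92, and Hba-a2, Hbb-bs, Hbb-bt, Alas2, Cma1, Mcpt4 and Tpsb2 were at 0 in all 10 libraries. Under 1 CPM in all 10 were 8 of 12 dendritic cell, 10 of 12 lymphocyte, all 10 mast cell and basophil and all 8 erythroid markers. Clec9a alone reached 421.9 CPM in the dendritic cell list. These sums rest on few genes, so their tests cannot show that the share of other cells was equal. In bulk RNA, fewer cells of a type cannot be told apart from less RNA per cell.

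Several libraries stood apart. For the genes called higher in 284R, libraries 3, 4 and 5 of 284R were each above every 254I library for all 27 genes, library 2 for 9 of 27 and library 1 for 1 of 27. Over all genes tested, between 11.0% and 20.3% of genes in a 284R library were above every 254I library. The median difference of the 27 genes from the 254I library of the same number was 0.09, 0.34, 1.15, 1.44 and 1.27 on the log2(CPM + 1) scale in libraries 1 to 5. The median SD of the 34 called genes was 0.64 (log2) in 284R M1 and between 0.17 and 0.26 in the other 8 groups of the series, whereas over all genes it was 0.16 in 284R M1 and 0.14 to 0.20 elsewhere. The called genes were chosen by their values in these M1 libraries, so their contrast with all genes only describes the genes chosen. The libraries numbered 2 of both genotypes lay together on the first principal component of the M1 libraries, at 20.02 in 284R and 29.9 in 254I. The 254I M1 library 5 held IL-4-induced transcripts, given with Arg1 and Retnla.

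Of 12905 genes tested, 34 (0.263%) passed an adjusted p of 0.05 by edgeR (quasi-likelihood test, adjusted after Benjamini and Hochberg) in the fit over all 45 libraries: 27 (0.209%) were higher and 7 (0.0542%) were lower in 284R. At an unadjusted p under 0.05 there were 864. The genes higher in 284R included 5 of the NF-κB list, Nos2, Acod1, Acsl1, Sod2 and the receptors Clec4e, Cd40 and Gpr84, with log2 fold changes from 0.29 for M6pr to 2.37 for Clec4e. With the replicate number as a block, 64 genes passed: 54 (0.418%) higher and 10 (0.0775%) lower, of which 32 were among the 34. Each edgeR SE and p rests on a spread shared by all groups of the fit. As a median, the called genes spread more in 284R M1 than in the other groups, so these SE and p can be too small. The count changed with the libraries from which the spread was estimated. Fitted to the 10 libraries alone, the test called 1 gene, Slc9a9, and none of the 34, and fitted to the 15 M1 libraries alone it called 0 genes (967 at an unadjusted p under 0.05). Leaving out 284R library 3, 4 or 5 left 1, 4 and 1 genes called, and leaving out 284R library 1 or 2 raised the count to 98 and 118.

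**Figure D1:**
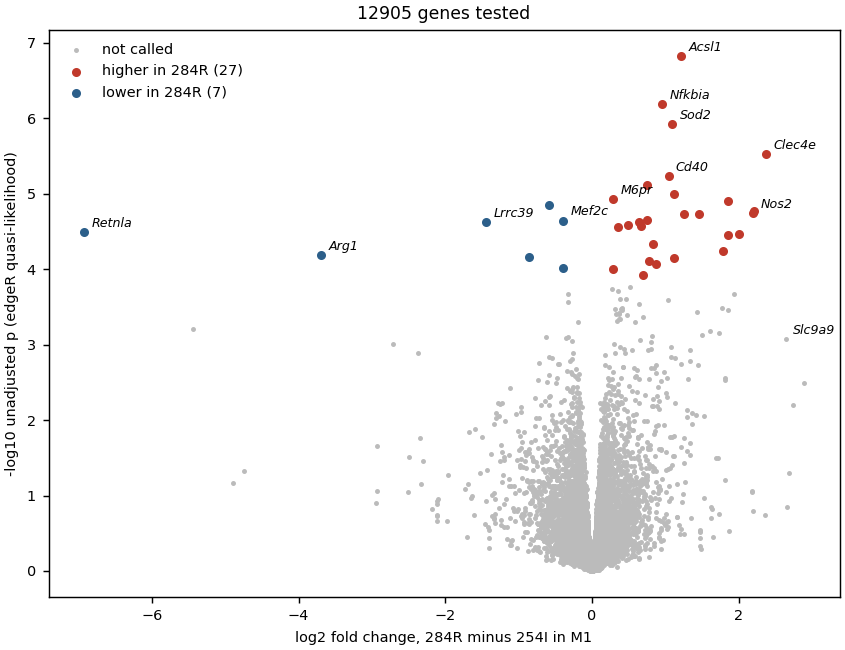
Each point is 1 of the 12905 genes tested, with the log2 fold change of 284R minus 254I in M1 on the x axis and −log10 of the unadjusted p on the y axis. The 27 genes called higher are red and the 7 called lower are blue. Acsl1 has the smallest p and Retnla, at -6.92, the largest decrease.

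Nos2, Acsl1, Nfkbia and Sod2 were all among the 27. They were listed as markers for this comparison with earlier results of these data known, so this is not independent evidence. The M1 level of Nfkbia did not lie above its M0 level in 254I, where it was 46.5 to 69.9 CPM in M0 and 41.6 to 51.2 CPM in M1. Acsl1 (chr8:46471037-46536051), which activates long-chain fatty acids as acyl-CoA, was measured at 200.4, 332, 642, 716 and 826 CPM in 284R libraries 1 to 5 and at 176, 231, 273, 219.8 and 268 CPM in 254I libraries 1 to 5. Its 254I libraries lay between 176 and 273 CPM, and only 284R library 1 fell within that range (exact permutation p = 0.048, two-sided). The log2 fold change was 1.22 (SE 0.19) at an adjusted p of 0.00194 by edgeR (quasi-likelihood test, adjusted after Benjamini and Hochberg), and it is the 1 gene that stayed called when each of the 10 libraries was left out in turn. Sod2 (chr17:13006846-13040063), the mitochondrial manganese superoxide dismutase, stood at 85, 92, 246, 234 and 260.3 CPM in 284R libraries 1 to 5 and at 82, 68.3, 89.8, 81.6 and 107 CPM in 254I libraries 1 to 5. Libraries 3 to 5 of 284R were far above the others, and libraries 1 and 2 lay among those of 254I. The log2 fold change was 1.10 (SE 0.19) at an adjusted p of 0.00521 by edgeR, whereas an exact permutation test of the 5 against 5 libraries gave p = 0.056 (two-sided). With equal replicate numbers paired, an exact sign-flip test gave p = 0.062 for each of Acsl1, Sod2, Nos2 and Nfkbia, the smallest it allows. The unpaired and paired exact tests of these genes used the libraries that called them. The tests were not adjusted for that choice and are not independent evidence.

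Nos2 (chr11:78920787-78960254), which makes nitric oxide from arginine, was found at 25.6, 8.6, 81.5, 149 and 131 CPM in 284R libraries 1 to 5 and at 19, 3.01, 26, 18.4 and 19.7 CPM in 254I libraries 1 to 5. The 2 libraries numbered 2 were the lowest of their genotypes, and library 4 of 284R was the highest of all. The log2 fold change was 2.20 (SE 0.45) at an adjusted p of 0.0168 by edgeR, whereas an exact permutation test of the 5 against 5 libraries gave p = 0.095 (two-sided). In 254V macrophages Nos2 ranged from 4.92 to 20.9 CPM, within the range of 254I. Acod1 (chr14:103046977-103056573), which makes itaconate from cis-aconitate, was measured at 255, 234, 1186, 1343 and 1325 CPM in 284R libraries 1 to 5 and at 195, 125, 336, 246 and 361 CPM in 254I libraries 1 to 5. Here libraries 1 and 2 of 284R lay inside the 254I range and libraries 3 to 5 well above it, a log2 fold change of 1.78 (SE 0.39) at an adjusted p of 0.0283 by edgeR. Of the 29 genes of itaconate synthesis and the tricarboxylic acid cycle tested, Acod1 was the only 1 called, and the list's median log2 fold change was 0.0022, beside -0.0029 over all genes tested. In nitric oxide and arginine metabolism, 11 genes were tested, Nos2 was called higher and Arg1 lower, and the median was 0.011.

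**Figure D2:**
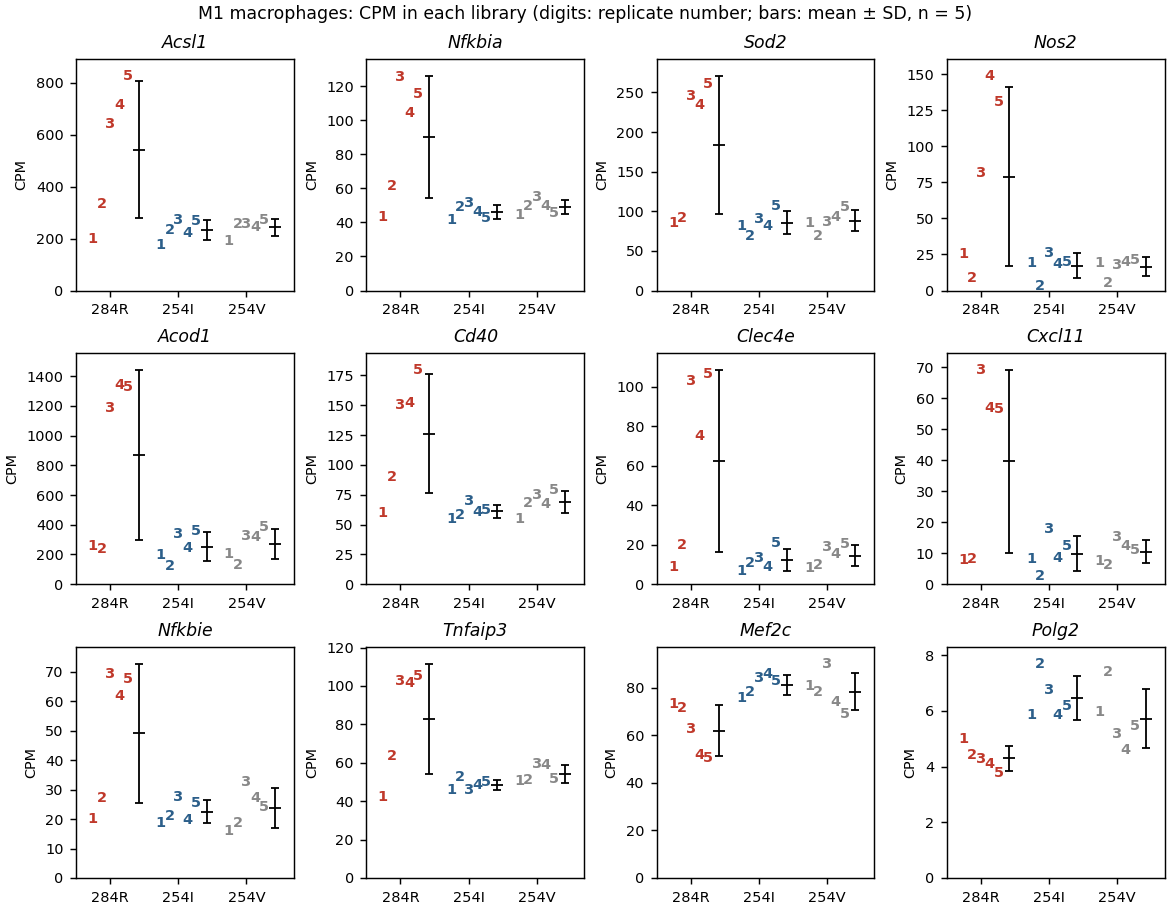
CPM of 12 genes in the M1 libraries of 284R, 254I and 254V, each digit being a library plotted by its replicate number and each bar the mean ± SD of 5 libraries. For the first 10 genes, libraries 3, 4 and 5 of 284R lie above all 254I and 254V libraries, and for Polg2 the 5 libraries of 284R lie below those of 254I.

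Of 20 genes of NF-κB subunits, inhibitors and their regulators, 5 were called higher and none lower, the median log2 fold change was 0.36, and 17 of 20 were positive. Over all genes tested, 0.209% were called higher and 48.9% were positive. The list was chosen with earlier results of these data known and holds the listed marker Nfkbia. Nfkbia (chr12:55489410-55492647), which encodes IκBα, stood at 43.1, 61.3, 126, 104 and 116 CPM in 284R libraries 1 to 5 and at 41.6, 49.3, 51.2, 46 and 42.7 CPM in 254I libraries 1 to 5. Only library 1 of 284R overlapped the 254I libraries (exact permutation p = 0.032, two-sided), and the log2 fold change was 0.96 (SE 0.16) at an adjusted p of 0.00424 by edgeR (quasi-likelihood test, adjusted after Benjamini and Hochberg). Nfkbie (chr17:45555703-45563169), which encodes IκBε, was measured at 19.9, 27, 69.2, 61.7 and 67.6 CPM in 284R libraries 1 to 5 and at 18.6, 21.2, 27.5, 19.8 and 25.5 CPM in 254I libraries 1 to 5. Its levels in libraries 3 to 5 of 284R were at least 61.7 CPM, against at most 27.5 CPM in 254I, with a log2 fold change of 1.12 (SE 0.25) at an adjusted p of 0.0318 by edgeR. Tnfaip3 (chr10:19000910-19015657), which encodes the ubiquitin-editing enzyme A20, was at 42.1, 63.4, 103, 101 and 105 CPM in 284R libraries 1 to 5 and at 45.9, 52.3, 45.9, 48.2 and 50.05 CPM in 254I libraries 1 to 5. Library 1 of 284R was below all 254I libraries and the other 4 above them, with a log2 fold change of 0.77 (SE 0.18) at an adjusted p of 0.0339 by edgeR.

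Among the subunits, Relb (chr7:19606217-19629438) was measured at 29.4, 42.3, 68.5, 60.7 and 66.9 CPM in 284R libraries 1 to 5 and at 25.9, 42.1, 35.1, 24.6 and 30.9 CPM in 254I libraries 1 to 5. Library 2 of 254I was almost level with library 2 of 284R, and the log2 fold change was 0.75 (SE 0.15) at an adjusted p of 0.0166 by edgeR. Nfkb2 (chr19:46304320-46312385), which encodes p100 and its product p52, ranged from 65.4 to 129.9 CPM in 284R and from 59.8 to 75.8 CPM in 254I, a log2 fold change of 0.64 (SE 0.13) at an adjusted p of 0.0168 by edgeR. With the replicate block, Traf1, an adaptor of TNF receptors, and Ikbke, an IκB kinase relative, were called as well (adjusted p = 0.0211 and 0.018 by edgeR), which made 7 of 20.

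Genes of 3 receptors were higher too. Clec4e (chr6:123281789-123289870), the receptor Mincle for mycobacterial glycolipids, stood at 8.67, 19.7, 103, 75.1 and 107 CPM in 284R libraries 1 to 5 and at 6.52, 10.8, 13.2, 8.95 and 21.1 CPM in 254I libraries 1 to 5. This was the largest log2 fold change among the genes called higher, 2.37 (SE 0.44) at an adjusted p of 0.00967 by edgeR, and it came from libraries 3 to 5. Of 22 pattern recognition receptors, Clec4e was the only 1 called, and the median was 0.089. Cd40 (chr2:165055627-165072948), the costimulatory receptor for T-cell CD40 ligand, was at 59.6, 89.7, 150.3, 152 and 179.6 CPM in 284R libraries 1 to 5 and at 54.9, 57.6, 69.8, 60.7 and 62.4 CPM in 254I libraries 1 to 5. Library 1 of 284R lay within the narrow 254I range and the others above it, with a log2 fold change of 1.05 (SE 0.20) at an adjusted p of 0.0152 by edgeR. The other genes of MHC class II and costimulation were not called, and the list median was -0.05. Gpr84 (chr15:103308235-103310612), a receptor for medium-chain fatty acids, was measured at 2.85, 2.99, 19.3, 19.8 and 18.8 CPM in 284R libraries 1 to 5 and at 1.27, 1.58, 4.52, 2.44 and 4.06 CPM in 254I libraries 1 to 5. Libraries 1 and 2 of 284R were among the 254I libraries and libraries 3 to 5 were at least 18.8 CPM, a log2 fold change of 2.21 (SE 0.45) at an adjusted p of 0.0168 by edgeR. With the replicate block, the formyl peptide receptor Fpr1 of the same list was called too (adjusted p = 0.0265 by edgeR), which made 2 of 24, against 1 without it.

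The interferon-induced genes are given next. Cxcl11, a ligand of CXCR3 which the GENCODE annotation lists as a polymorphic pseudogene, was found at 7.72, 8.02, 69.2, 56.8 and 56.5 CPM in 284R libraries 1 to 5 and at 8.21, 2.81, 17.8, 8.49 and 12.3 CPM in 254I libraries 1 to 5. Libraries 3 to 5 of 284R exceeded every 254I library and libraries 1 and 2 did not, with a log2 fold change of 2.001 (SE 0.42) at an adjusted p of 0.0188 by edgeR. It was the only 1 of 9 CXC chemokines called, and the median of the 9 was 0.72, with a range from -0.66 to 2.89. Ubd (chr17:37193892-37196095), the ubiquitin-like modifier FAT10, was at 5.03, 2.7, 26.7, 21.4 and 31.4 CPM in 284R libraries 1 to 5 and at 4.23, 3.14, 6.05, 3.01 and 7.75 CPM in 254I libraries 1 to 5. Library 2 of 284R was below all 254I libraries, and the log2 fold change was 1.85 (SE 0.39) at an adjusted p of 0.0188 by edgeR. Of 25 antiviral interferon-stimulated genes, all 25 had a positive log2 fold change, from 0.08 to 0.74, the median was 0.26, and none was called. The 3 with the smallest p were Oasl1, Isg20 and Ddx58, with log2 fold changes of 0.74, 0.68 and 0.38 and adjusted p of 0.807, 0.838 and 0.905 by edgeR. Of 20 interferon signalling genes and 19 guanylate-binding proteins and immunity-related GTPases, none was called, and the medians were 0.08 and 0.03. In M0 the same antiviral genes had a median of -0.55, with 0 of 25 positive, but this rested on 254I M0 library 4, in which Oasl1 was 111 CPM, against 14.7 to 24 CPM in the other 4. Without that library, a fit chosen after seeing the data, the M0 median was 0.14 and 24 of 25 were positive, and 0 genes were called in M0 either way.

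**Figure D3:**
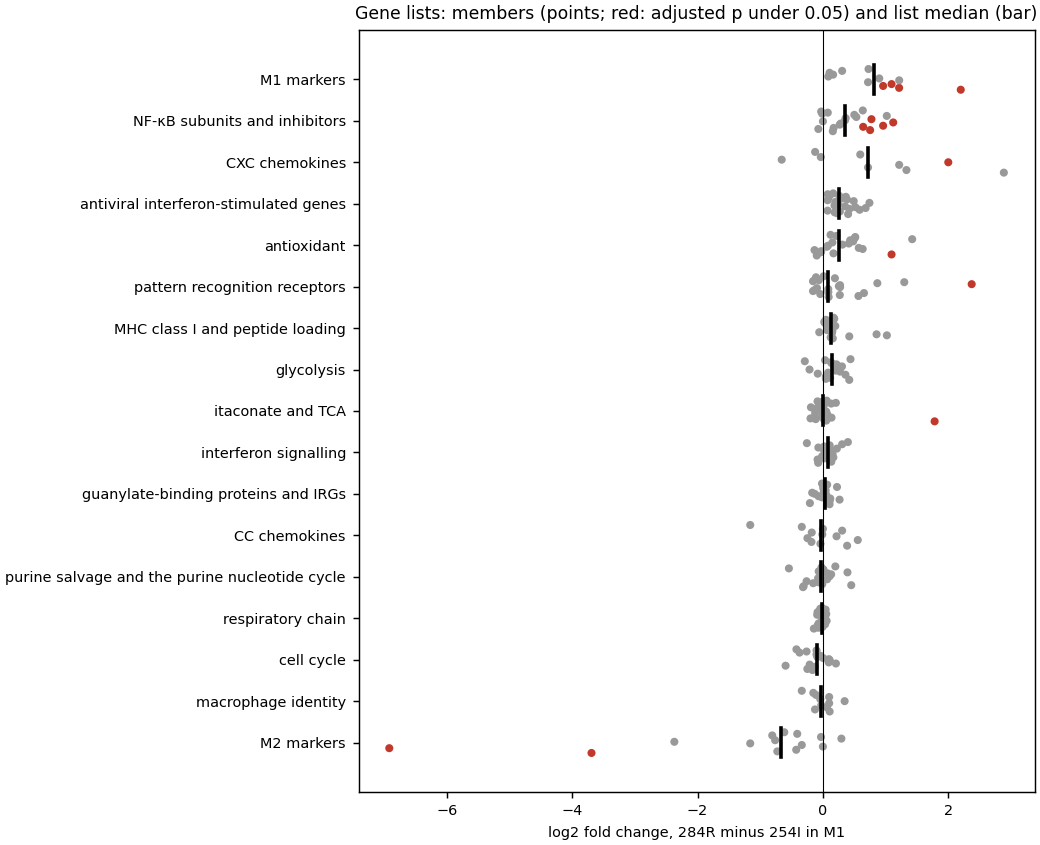
Log2 fold changes of 284R minus 254I in M1 for the tested members of 17 gene lists, with members past an adjusted p of 0.05 in red and the list median as a bar. The M1 markers have a median of 0.81 and the NF-κB list of 0.36, and the M2 list is drawn out to -6.92 by Retnla. The lists were chosen with earlier results of these data known.

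Other called genes had no shared list. Sco1, a copper chaperone of cytochrome c oxidase, was the only called higher gene whose groups did not overlap: 37.2, 39.6, 46.1, 43.3 and 39.5 CPM in 284R libraries 1 to 5 and at 34.8, 31, 35.1, 32.1 and 35.6 CPM in 254I libraries 1 to 5. Its log2 fold change was small, 0.29 (SE 0.07) at an adjusted p of 0.0384 by edgeR. Over all genes, 41 (0.318%) were higher in 284R with no overlap, 37 (0.287%) were lower with none, and 777 (6.02%) were higher in all 5 pairs of equal number, and 19 of the 27 called higher genes were among these 777. M6pr, the cation-dependent mannose 6-phosphate receptor of lysosomal sorting, ranged from 446 to 626 CPM in 284R and from 446 to 484 CPM in 254I (log2 fold change 0.29 (SE 0.06) at an adjusted p of 0.0168 by edgeR). Nrp2, a receptor for semaphorins, ranged from 412 to 947 CPM and from 319.9 to 486 CPM respectively, with a log2 fold change of 0.75. Slc2a6, a glucose transporter of the GLUT family, Ninj1, which takes part in rupture of the plasma membrane, and Marcksl1, an actin-binding protein, had log2 fold changes of 0.87, 0.83 and 1.26. The rest were Plpp1, a lipid phosphatase (1.46), Lmo4, a LIM-domain cofactor (0.67), Mink1, a protein kinase (0.35), Cdc42ep2, an effector of CDC42 (0.70), Tma16 (1.12), Heatr9 (1.85) and Mllt6 (0.49). In all of these except Sco1 the 284R libraries overlapped those of 254I.

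The genes lower in 284R were fewer. Polg2, the accessory subunit of the mitochondrial DNA polymerase, was measured at 4.99, 4.41, 4.26, 4.08 and 3.77 CPM in 284R libraries 1 to 5 and at 5.85, 7.69, 6.76, 5.86 and 6.16 CPM in 254I libraries 1 to 5. All 5 of 284R were below all 5 of 254I, and the log2 fold change was -0.59 (SE 0.12) at an adjusted p of 0.0168 by edgeR. Mef2c, a transcription factor of the MADS family, was at 73, 71.7, 62.7, 51.8 and 50.5 CPM in 284R libraries 1 to 5 and at 75.7, 78.1, 84.1, 85.6 and 83 CPM in 254I libraries 1 to 5. These groups did not overlap either, with a log2 fold change of -0.39 (SE 0.08) at an adjusted p of 0.0168 by edgeR. Mctp1 (-0.39), Ispd, which acts in dystroglycan glycosylation (-0.86), and Lrrc39 (-1.44) overlapped between genotypes, and Ispd and Lrrc39 were below 1.3 CPM in every library of both genotypes.

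Arg1, which degrades arginine to ornithine and marks IL-4-treated macrophages, and Retnla, another IL-4-induced gene, were called lower through 1 library. Arg1 was at 0.475, 0.748, 0.256, 0.776 and 0.912 CPM in 284R libraries 1 to 5 and at 0.637, 0.55, 0.585, 0.902 and 40.8 CPM in 254I libraries 1 to 5. The other 9 libraries were all under 1 CPM. Retnla was at 0.0396, 0.249, 0.0426, 0.0287 and 0 CPM in 284R libraries 1 to 5 and at 0, 0.0323, 0.065, 0.0376 and 49.1 CPM in 254I libraries 1 to 5. The 254I library 5 was the highest of the 10 for 9 of the 14 M2 markers and not for the other 5, Ccl22, Clec10a, Tgm2, Pdcd1lg2 and Ccl17. It held Mgl2 at 14.99 CPM and Chil3 at 33.7 CPM, against at most 1.39 and 19.3 CPM in the other 9 libraries (these 2 genes were chosen after their values were seen). Its Arg1 and Retnla levels were 5.09% and 1.74% of those in the M2 culture of the same number. By edgeR, Arg1 had an adjusted p of 0.0314 and Retnla of 0.0188, with the replicate block 0.107 and 0.105, and without this library the log2 fold change of Retnla turned to 0.97 and neither was called. The 14 M2 markers were otherwise not called, and 1 of 14 was positive (median -0.67). That median includes 254I library 5, and no median without it is given here. In 254V against 254I in M1, which shares this library, the list median was -0.52. The summed level of the 14 was 791 to 1327 CPM in 284R and 673 to 1308 CPM in 254I (exact permutation test, two-sided, p = 0.67).

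**Figure D4:**
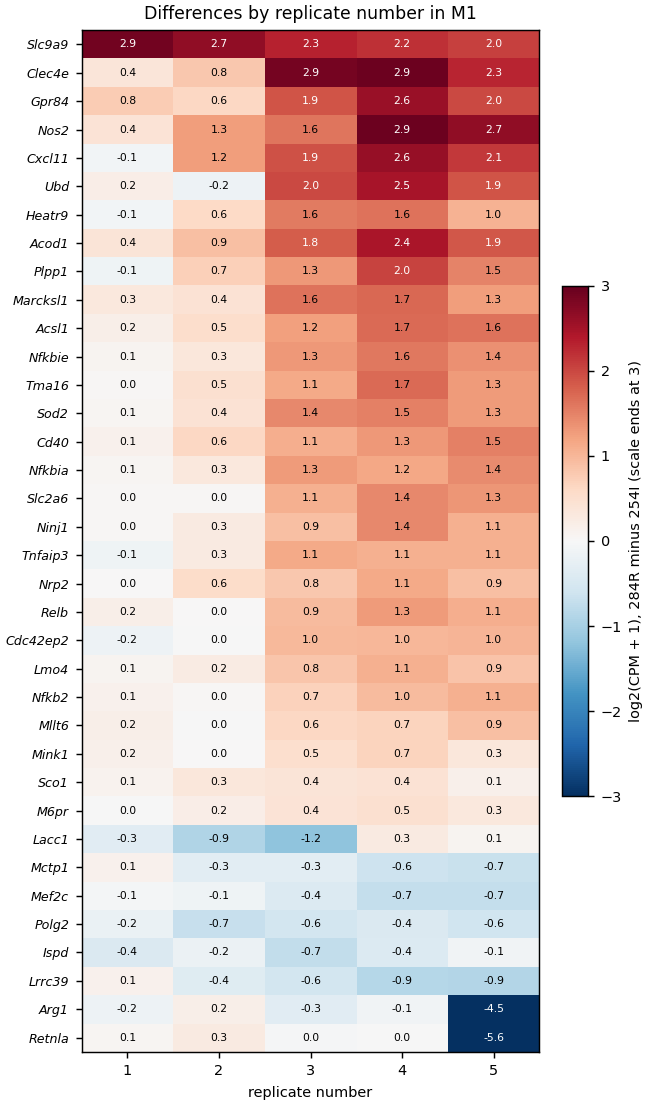
Differences in log2(CPM + 1) between the 284R and 254I M1 libraries of equal replicate number, for the 34 called genes, Lacc1 and Slc9a9. Columns 3 to 5 are positive for all 27 genes called higher, columns 1 and 2 are paler, and Arg1 and Retnla are strongly negative in column 5 alone.

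The gene of FAMIN itself, Lacc1 (chr14:77024200-77036904), was not called. It stood at 396, 263, 218, 584 and 553 CPM in 284R libraries 1 to 5 and at 501, 490.2, 509, 486 and 523 CPM in 254I libraries 1 to 5. The 254I libraries were close to each other, whereas libraries 1 to 3 of 284R were below them and libraries 4 and 5 above. The log2 fold change was -0.32 (adjusted p = 0.915 by edgeR, exact permutation p = 0.21, two-sided). In M0 and M2 the 284R libraries numbered 1 to 3 were again the lowest of the 5, at 91.2 to 119 CPM in M0 and 56.8 to 122 CPM in M2, and those numbered 4 and 5 were at 160.4 to 169 CPM in M0 and 175 to 199.5 CPM in M2.

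Slc9a9 (chr9:94669909-95230445), a sodium-proton exchanger of endosomes, had a level that separated the groups: 45.6, 52.1, 35.6, 26 and 26.4 CPM in 284R libraries 1 to 5 and at 5.28, 7.4, 6.37, 4.89 and 5.65 CPM in 254I libraries 1 to 5. The exact permutation p was 0.0079 (two-sided), the smallest that 5 against 5 libraries allow. With equal replicate numbers paired, an exact sign-flip test gave p = 0.062, the smallest it allows. The study had singled out Slc9a9 from these same libraries, so neither p, not adjusted for that choice, is independent evidence. The log2 fold change was 2.64 (SE 0.73) at an adjusted p of 0.158 by edgeR over 45 libraries, so it was not called there, but it was called in the fit to the 10 libraries (adjusted p = 0.00111). In M0 it was 139.5 to 253 CPM in 284R and 11.2 to 21.7 CPM in 254I, and in M2 12.5 to 46.4 and 1.81 to 4.24 CPM. In 254V M1 macrophages it was 53.5, 69.8, 35.1, 5.25 and 6.00 CPM in libraries 1 to 5, so 3 were as high as 284R and 2 as low as 254I. It was the only one of 8 sodium-proton exchangers tested whose groups did not overlap, and none was called.

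The difference was then set beside the other states and genotype. The same fit called 0 genes between 284R and 254I in M0 (140 at an unadjusted p under 0.05) and 1 in M2, Mid1, a microtubule-associated ubiquitin ligase. Mid1 was named after its values were seen: in M1 it was 3.53 to 9.12 CPM in 284R and 1.54 to 3.19 CPM in 254I. Over the 27 genes called higher, the median log2 fold change was 1.05 in M1, 0.15 in M0 and 0.09 in M2, and over the 7 called lower it was -0.86, 0.06 and 0.04. The M1 value is what chose these genes. The interaction, that is the M1 difference minus the M0 or M2 difference, called 0 genes against M0 (356 at an unadjusted p under 0.05) and 0 against M2 (350), and DESeq2 and limma called 0 in both. This fit did not pair the M0, M1 and M2 cultures that share a genotype and number in their titles. With genotype and number as a block, 0 genes were called in both (561 and 539 at an unadjusted p under 0.05 by edgeR). Acsl1 had an interaction of 1.11 against M0 (adjusted p = 1.00 by edgeR) and 1.14 against M2 (adjusted p = 0.563). With all libraries, no gene was thus shown to differ by genotype more in M1 than in M0 or M2. Without 284R library 1 the interaction called Acsl1 against M0 and 6 genes, Acsl1 among them, against M2, and with the replicate block as well, a fit chosen after seeing the data, 11 and 25 genes.

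Comparing 254V with 254I in M1, which shares its 254I libraries with the comparison above, the fit called 0 genes (120 at an unadjusted p under 0.05). The median log2 fold change of the 27 genes there was 0.09 and of the 7 genes -0.33. In 254V M1 macrophages Acsl1 ranged from 189.6 to 272 CPM and Nfkbia from 44.4 to 54.9 CPM, both near the 254I levels. M1 polarization of 254V macrophages, a contrast with no 284R or 254I library, raised 30.3% and lowered 32.1% of all genes. Of the 27 genes higher in 284R, 15 rose with M1 polarization, 3 fell and the others were not called. Of the 7 lower in 284R, 4 fell and none rose. Nos2 rose by 10.58 and Acsl1 by 2.04 on the log2 scale in that contrast, whereas Nfkbia (-0.20) and Clec4e (-0.38) were not called. Nos2 was at most 0.0328 CPM in the 254V M0 libraries, so the size of its rise rests on few counts.

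**Figure D5:**
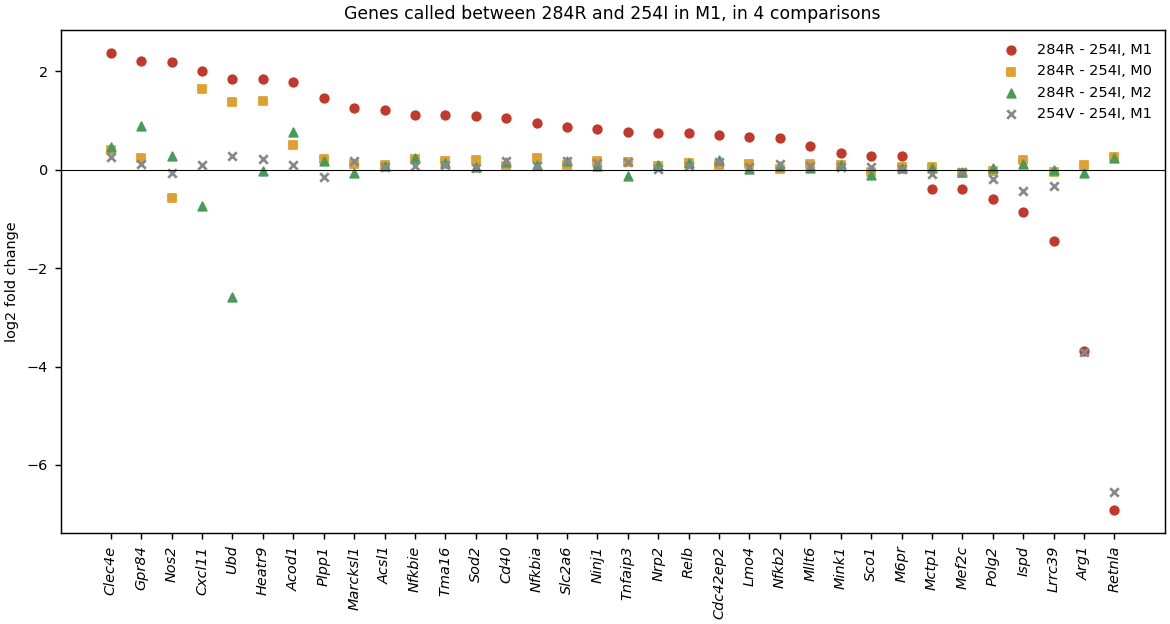
Log2 fold changes of the 34 called genes in 4 comparisons, ordered by the M1 difference between 284R and 254I. The M0, M2 and 254V points lie near 0 for most genes, and the 254V point falls with the 284R point for Arg1 and Retnla, where both comparisons use 254I library 5. Cxcl11, Ubd and Heatr9 were under 0.15 CPM in every M0 and M2 library of both genotypes, so their M0 and M2 points rest on few counts.

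With the replicate block, 32 further genes were called. The 15 with the smallest adjusted p were, with log2 fold changes from the fit without the block, 1110002J07Rik (1.78), Slc16a10, an amino acid transporter (0.40), Inpp5b, an inositol phosphatase (0.27), Nadk, which makes NADP (0.38), Gpd2, the mitochondrial glycerol 3-phosphate dehydrogenase (0.48), Adam17, which sheds TNF (0.36), Zmiz2 (0.33), Nab1 (0.31), Gtf3c5 (0.34), Ikbke (0.64), Anxa4 (0.27), Traf1 (1.02), Dram1 (0.32), Smpdl3b (1.04) and Rnf150 (-0.63). Of them Rnf150 was the only one lower. Their adjusted p with the block ran from 0.00221 to 0.0265 by edgeR.

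Most metabolic and cell-biological lists showed no called member. In glycolysis 0 of 21 was called and 18 were positive, with a median of 0.14, and the 3 with the smallest p were Tpi1 (0.24), Slc16a3 (0.44) and Aldoa (0.20). In purine salvage and the purine nucleotide cycle, the pathways in which FAMIN acts, 0 of 22 was called, the median was -0.03, and Adk, adenosine kinase (-0.26), Gmpr, guanosine monophosphate reductase (-0.54) and Ada, adenosine deaminase (-0.31), had the smallest p. In the respiratory chain 0 of 25 was called (median -0.01), and in the cell cycle 0 of 20 (median -0.10). Of 21 MHC class I and peptide loading genes 20 were positive and none called, with H2-Q6 (1.02), H2-Q7 (0.86) and H2-Q4 (0.42), near-identical family members whose reads can be split uncertainly, at the smallest p. Tnf, the cytokine, had the smallest p of its list (log2 fold change 0.90, adjusted p = 0.324 by edgeR), and of 18 cytokines none was called. Of the prostaglandin genes Ptges and Ptgs2 stood at 0.81 and 0.82, with adjusted p of 0.188 and 0.396 by edgeR, and 0 of 12 was called. Of 8 NADPH oxidase genes none was called, and Hvcn1, a proton channel, was called with the block alone (adjusted p = 0.0485 by edgeR). Of the 34 genes tested from the table of genes the study drew up, 7 were called, and 29 were positive, but that table was drawn up on these libraries and is not independent evidence of its direction.

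The remaining lists held few called genes. Of 25 genes of fatty acid metabolism Acsl1 alone was called (median -0.04), and of 20 antioxidant genes Sod2 alone (median 0.26, 16 of 20 positive). None was called among 12 CC chemokines, 18 cholesterol genes, 15 inflammasome and cell death genes, 14 complement genes and 8 Src family kinases. In these lists the smallest p belonged to Nr1h3, the liver X receptor α (0.92), Mefv, which encodes pyrin (1.01), C1s1, a complement protease (0.65), and the kinases Src (0.81) and Fgr (0.88). Of 11 macrophage identity genes, 5 were positive and none was called, and the median was -0.03. Genes that overlap a gene on the opposite strand include Acsl1, Polg2, Plpp1, Nfkb2, Lrrc39, Cxcl11, Lacc1 and Slc9a9, and whether reads were counted by strand is not given in the sources used here.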

How the data were processed

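Poly(A) RNA of 45 bone marrow-derived macrophage cultures was sequenced with a strand-specific kit, single-end, and the 10 M1 libraries of 284R and 254I were compared here. The authors deposited a table of raw read counts per Ensembl gene (29307 genes), which was used, and a table of CPM, which was not. Per the submitters' processing notes, FastQC, Trim Galore, HISAT2 and limma were used on mm10, whereas the series text names STAR and Cutadapt. The counting tool, annotation and strand setting are not given in the sources used here, so counts of overlapping genes may mix.

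Groups came from the sample titles. Nothing in the labels says that the libraries of a group came from separate mice, so p-values measure the spread between libraries. In edgeR that spread is shared by the 9 groups and is not that of the 2 groups compared alone. No 2 libraries were identical. Total counts were 17239009 to 36892515 per library (median 26539904.5), so before TMM scaling 1 CPM stood for 17.2 to 36.9 reads. Genes were filtered with filterByExpr (12905 kept), scaled by TMM and tested in edgeR 4.0.16 (quasi-likelihood, robust, 9 groups, 45 libraries, R 4.3.3), with Benjamini-Hochberg adjustment over all genes tested and a threshold of 0.05. CPM values in the text are counts over library totals scaled by the TMM factors, which were 0.939 to 0.993 in the 10 libraries. Single values were tested on log2(CPM + 1) by two-sided exact permutation. Paired tests flipped the signs of the differences between libraries of equal number, with a smallest possible p of 0.062. limma 3.58.1, DESeq2 1.42.0, other filters, scalings, sets of libraries, the replicate block and each library left out were tried. For the interactions, a block of genotype and number was tried too. The test was also run on simulated counts, with no result given here. The called genes spread unequally between groups, so no conclusion about the calls is drawn from that run. Symbols and positions came from GENCODE M21, which matched 29081 of the gene IDs.

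For the replicate block and the paired tests, equal replicate numbers were taken as pairs because every pair passed a correlation of 0.1. The main fit and the other exact tests did not use this pairing. Over 8404 genes, deviations from the group means of 284R and 254I libraries of equal number correlated at 0.30, 0.82, 0.30, 0.37 and 0.30. In 3 of the 5 pairs the 284R library correlated best with its own number, and those numbered 4 and 5 did not. This is read from the data, since the labels do not say what a number marks. Genes named are all genes called, the 15 further genes with the smallest adjusted p under the block, members of a list called or, where none was, up to 3 with the smallest p, Lacc1 and 4 genes listed as markers. Slc9a9 and Mid1, which the study reported from these libraries, were named as well. Of the promoter motifs searched, 1 is not reported here. The comparison, its genes and its 37 lists were chosen with earlier results of these data known.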

Additional observations from a re-analysis of the deposited data

Results flagged for a closer look

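For each of 86 named genes, the gap between the most extreme library and its neighbour was divided by the range of the 5 libraries on the log2(CPM + 1) scale, in 284R and in 254I, which makes 172 groups. In 9 the ratio was above 0.71. Chance gives about 1 in 20, and 9 of 172 is near that share.

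In 254I library 5, Retnla at 49.1 CPM (ratio 0.984) and Arg1 at 40.8 CPM (0.938) stood alone. Both genes were named because they were called through this library, so these flags follow from that choice. In 284R, Retnla was highest in library 2 at 0.249 CPM (0.813), and Lrrc39 was highest in library 1 at 0.594 CPM (0.791).

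Library 2 of 254I was the lowest for Nos2, at 3.01 CPM (0.825), and the highest for Mllt6, at 80.6 CPM (0.832), and for Gtf3c5, at 18.1 CPM (0.82). Library 2 of 284R was the lowest for Tgtp1, at 43.1 CPM (0.73), an interferon-induced GTPase. Library 4 of 254I was the lowest for the kinase Fgr, at 10.7 CPM (0.724).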

How the results depend on the processing

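Of 86 genes named, 85 kept their direction wherever a change was called, and none of the 34 called genes was called under all 12 alternatives that left out no single library, since the fit to the 15 M1 libraries called none. The count of 34 became 64 with the replicate block, 64 with DESeq2 and 11 with limma-voom. It was 1 in a fit to the 10 libraries alone, 79 there with the block, 0 in a fit to the 15 M1 libraries and 433 there with the block. Of the 79 and 433 genes, 1 and 13 were among the 34. The cause was not tested. In the fit to all libraries the block ended the calls of Arg1 and Retnla, left the other 32, took the list members called from 17 to 20 and the genes called in M0 from 0 to 1, and left both interaction counts at 0. Leaving out 1 of the 10 libraries gave 1 to 118 genes, and with the block as well, an alternative chosen after seeing the data, 15 to 276. With a library left out and no block, the interaction against M0 ran from 0 to 1 genes (Acsl1, without 284R library 1) and that against M2 from 0 to 6 (Acsl1, Nfkbia, Sod2, Tnfaip3, M6pr and Lrrc39, without the same library). With the block as well they ran from 0 to 11 and from 0 to 25, both highest without 284R library 1, and 0 to 2 without any other. Without 254I M0 library 4, also chosen after seeing the data, the interaction against M0 called 0. The log2 fold change of Retnla ran from -8.08 to 0.97 with a library left out, and was 1.07 without 254I library 5 under the block. With DESeq2 size factors 33 genes were called, with a filter of a mean of 1 CPM 33, without robust dispersions 34, with no filter 24 and with limma-voom and the block 47. Genes under 1 CPM, such as Lrrc39, rest on few reads, and 5 against 5 libraries allow no exact p under 0.0079.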
